A study of Drosophila melanogaster with 3 samples.

Results

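The Hippo pathway genes described here are 10 protein-coding genes of Drosophila melanogaster, chosen by name from the annotation of 13945 protein-coding genes on the main chromosome arms. They are the cadherin arm (ft, ds and app), the apical regulators (Mer, ex and kibra), the kinase core (hpo, wts and mats) and the coactivator gene yki. All 10 names matched a single annotated gene. Occupancy by Ets21C, an ETS-family transcription factor, was measured at them by chromatin immunoprecipitation with sequencing (ChIP-seq) with an anti-GFP antibody. The animals were whole white prepupae, which are larvae that have just begun to pupariate, of the strain d.ets6-GFP, a stable transgenic line in which GFP is joined to the C-terminus of Ets21C. Male and female animals were pooled, their age is given as unknown, and the 3 biological replicates form 1 group. All 3 replicates carry the transgene, no library from untagged animals was analysed here, and the promoter that drives the fusion is not given in the sources used here. Since whole animals were used, fewer bound cells and weaker binding per cell cannot be told apart.

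The Hippo pathway restrains tissue growth. At the cell surface the giant cadherins Fat and Dachsous bind each other between neighbouring cells, while Merlin, Expanded and Kibra gather at the apical membrane. Both inputs act on a kinase cascade in which Hippo, with partners, activates Warts, and Warts, with its adaptor Mats, phosphorylates the coactivator Yorkie and keeps it out of the nucleus. Yorkie that enters the nucleus works with the DNA-binding factor Scalloped and raises transcription of growth and survival genes. It also raises that of ex, kibra and Mer, whose products act back on the cascade.

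Several kinds of deposited peak list were used. The optimal list holds 4505 peaks that passed the authors' test of reproducibility, and the pooled list holds 27085 peaks called on all 3 replicates together. The lowest optimal signal was 109, and the pooled list also held 4505 peaks down to that signal. The 26 optimal peaks of the members had the same signal and rank in both lists. A member peak in the pooled list alone was thus one of lower signal, and an optimal peak need not be in every replicate list. The replicate lists hold 30000, 28006 and 30000 peaks, weak ones included. A peak is placed by its summit. Signal is the authors' value for a peak, and the median of the optimal list was 192. The optimal and pooled lists share a scale, and each replicate list has its own. Height in a replicate is the signal there divided by the median of its top list, which is its 4505 peaks of highest signal. Distances are to the nearest annotated transcription start site (TSS), negative when upstream, and a promoter peak has its summit within 500 bp of a TSS. The lists give no reads, so sequencing depth is unknown. No test was run on the members, because the samples form 1 group and genes are not replicates.

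Ets21C peaks lay over or just upstream of 9 of the 10 genes. The strongest were upstream of ds, and upstream and in introns of ex. In the optimal list these 9 genes held 26 peaks over the gene and 2 kb upstream, and hpo held none. For comparison, 23.6% of all protein-coding genes had such a peak. That share was 19.2% below 10 kb, 46.4% at 10 to 30 kb and 57.6% over 30 kb. Of the members, ft, ex, kibra and wts are 10 to 30 kb long, ds and app are over 30 kb, and the rest are shorter. In the pooled list the same 9 genes held 76 peaks, where 55.5% of coding genes had at least 1. Of the 26 optimal summits 7 lay upstream of the gene and 19 in an intron, and 0 lay in a coding exon or a UTR. No such split of all optimal summits is given here, so these counts are not read as a trait of the 10 genes. The signal of 18 of the 26 was above the median of the optimal list. All 3 replicate lists held 18 of the 26 within 100 bp (69.2%, against 67.0% of all optimal peaks), and all 3 top lists held 13 of the 26, beside 45.9% of all optimal peaks. Replicate 1 lacked 7 of them, replicate 2 lacked 1 and replicate 3 lacked 1. They held 73.1%, 96.2% and 96.2% of the 26, close to the 70.5%, 95.5% and 97.4% of all optimal peaks.

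**Figure D1:**
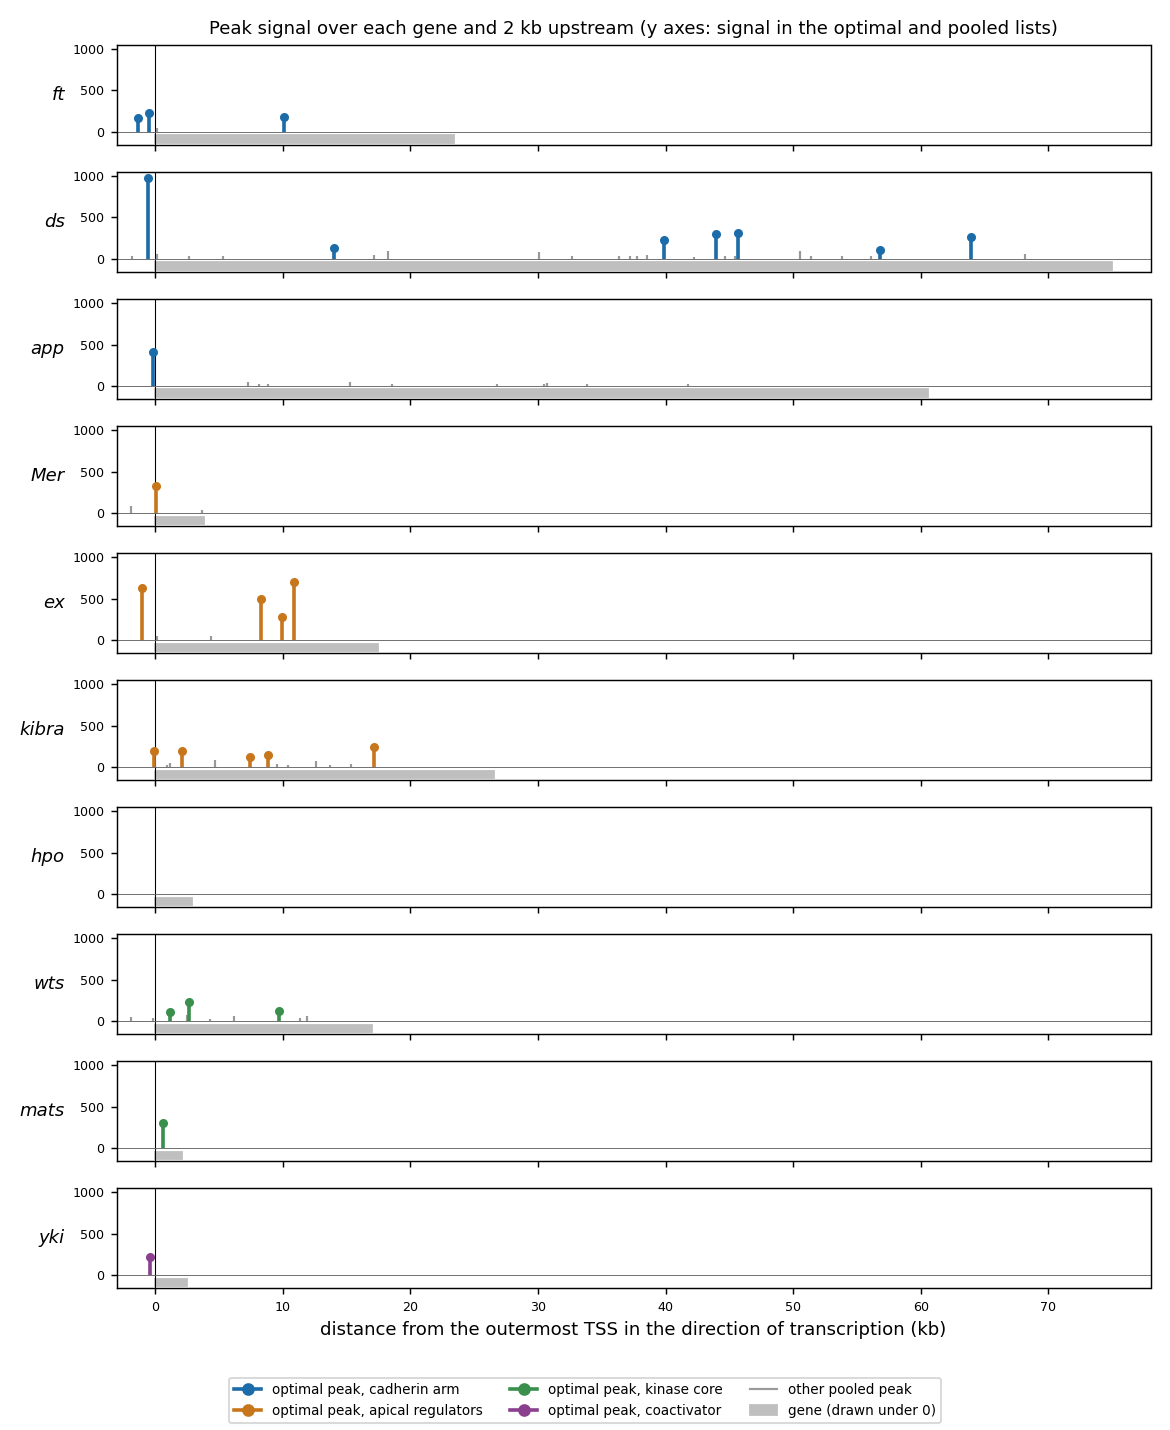
Position (x axis, kb from the outermost TSS, in the direction of transcription) and signal (y axis) of each peak over the 10 genes and 2 kb upstream. Coloured stems are the 26 optimal peaks, grey stems the other pooled peaks, and grey bars the genes. The highest stem is upstream of ds, with a signal of 968, ex holds 3 of the 4 next highest, and hpo has none.

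Promoter peaks were found at 6 of the 10 genes in the optimal list (ft, app, Mer, kibra, mats and yki), where 15.2% of coding genes had one. By gene length that share was 13.8% below 10 kb, 23.7% at 10 to 30 kb and 24.3% over 30 kb. In the pooled list 9 genes had one (36.6% of coding genes), weak at ds (163 bp downstream, signal 56.6), ex (186 bp downstream, 48.8) and wts. The count differed between replicates. The top list of replicate 1 had promoter peaks at 2 members, ft and app (8.68% of coding genes). That of replicate 2 had them at 5, app, Mer, kibra, mats and yki (17.4%), and that of replicate 3 at 6, these 5 and hpo (18.6%). Only app was in all 3 top lists by this rule. In the whole lists the counts were 3, 7 and 10 members, beside 22.4%, 39.6% and 52.1% of coding genes. Replicate 1 held 52.0% of all optimal promoter peaks of coding genes, and 2 of the 6 at these genes. The 500 bp limit fell close to 3 summits. Just inside it were ft at −494 bp and mats at 476 bp, and just outside was ds at −579 bp. The next summit beyond it was that of ex at −980 bp. With a limit of 250 bp the members with a promoter peak were app, Mer and kibra (11.8% of coding genes). With 1000 bp ds and ex joined the 6 (18.1%). With only optimal peaks shared by the top lists of replicates 1 and 3, so without replicate 2, ft and app had one (5.94% of coding genes). Without replicate 3 the same 2 genes had one (6.49%), and without replicate 1 there were 5 (10.8%).

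**Figure D2:**
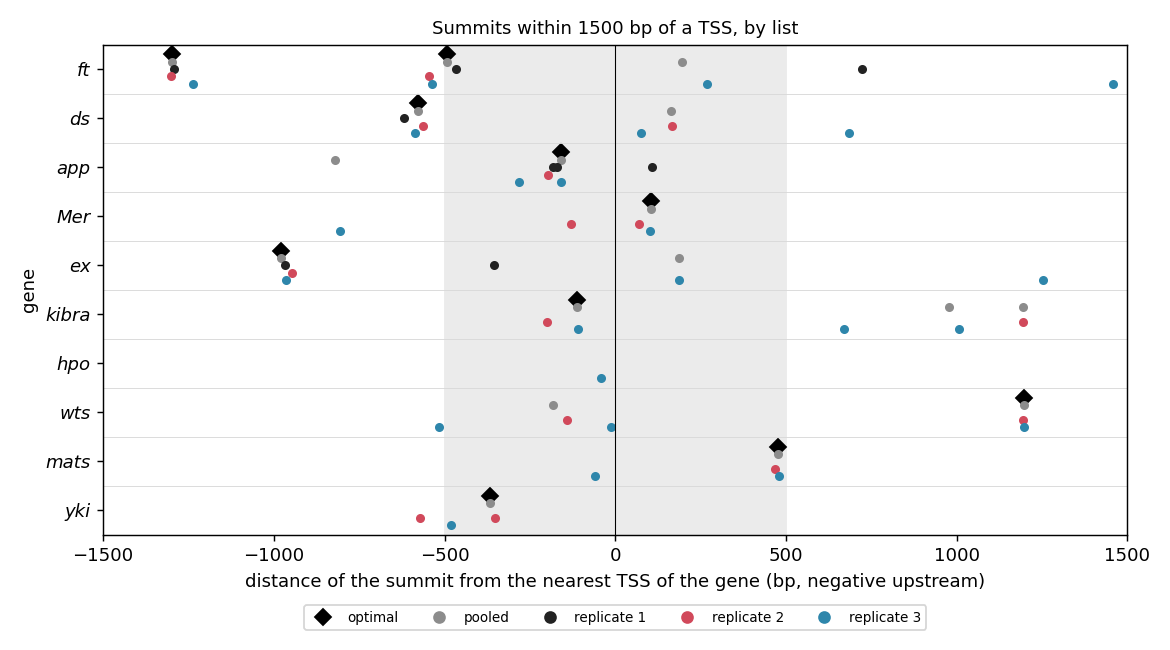
Summits within 1500 bp of the nearest TSS of each gene (x axis, bp, negative upstream). Diamonds are optimal peaks and circles the pooled and replicate lists, and the shaded band is the 500 bp limit. The optimal summits of ds and ex lie outside the band, with a circle of every list beside them, ft has one at its edge, and hpo has a single circle, from replicate 3.

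Sequences are shown for the highest peak of ds, the 2 highest of ex and the only one of app, all in every top list, and, for comparison, for 2 promoter peaks that replicate 1 lacked (kibra and mats). They are printed from RefSeq's Release 6 genome (dm6), 60 bp to each side of the summit, 5′ to 3′ on the strand of the gene. Capitals mark a searched word, which here is the DRE word TATCGATA at kibra.
ds, 579 bp upstream of the TSS, minus strand, chr2L:715502-715622: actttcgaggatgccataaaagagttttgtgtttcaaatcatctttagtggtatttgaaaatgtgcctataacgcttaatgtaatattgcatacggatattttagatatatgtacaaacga
ex, 980 bp upstream of the TSS, plus strand, chr2L:430187-430307: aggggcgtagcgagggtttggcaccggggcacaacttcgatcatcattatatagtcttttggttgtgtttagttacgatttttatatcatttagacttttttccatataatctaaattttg
ex, intronic, plus strand, chr2L:442043-442163: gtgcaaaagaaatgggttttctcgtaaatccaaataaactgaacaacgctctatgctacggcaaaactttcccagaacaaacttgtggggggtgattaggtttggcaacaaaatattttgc
app, 159 bp upstream of the TSS, minus strand, chr3L:12266940-12267060: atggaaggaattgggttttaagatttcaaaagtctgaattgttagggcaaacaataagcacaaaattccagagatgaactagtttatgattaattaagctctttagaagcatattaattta
mats, intronic, plus strand, chr3R:22421741-22421861: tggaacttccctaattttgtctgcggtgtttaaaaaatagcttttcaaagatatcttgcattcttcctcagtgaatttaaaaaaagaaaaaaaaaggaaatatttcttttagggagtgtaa
kibra, 113 bp upstream of the TSS, minus strand, chr3R:14724314-14724434: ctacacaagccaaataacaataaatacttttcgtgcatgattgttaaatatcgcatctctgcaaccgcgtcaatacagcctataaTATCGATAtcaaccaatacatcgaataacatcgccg

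The cadherin arm carried the single highest peak of the set, upstream of ds. Dachsous is the cadherin that acts as ligand for Fat. The ds gene (FBgn0284247, 2L:640013-714983, minus strand, 75.0 kb) held 7 optimal peaks. The highest (2L:715403-715738) had a signal of 968, rank 122 of 4505, with its summit 579 bp upstream of the only annotated TSS and no other TSS within 500 bp. Its heights were 5.21, 4.25 and 5.37 in replicates 1, 2 and 3 (4.94 ± 0.604, SD, n = 3). All 3 replicates were thus at over 4 times their top-list median, and the peak ranked 184, 148 and 98 in them. The other 6 ds peaks were intronic, from 14011 to 63943 bp downstream of the TSS, with signals of 114 to 311. Neighbouring peaks at 43994 and 45645 bp had mean heights of 1.49 ± 0.0861 and 1.54 ± 0.0899 (SD, n = 3). Of the 7 peaks 5 were in every top list. Of 663 coding genes over 30 kb, 48 (7.24%) held at least as many optimal peaks.

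Fat, the giant cadherin that receives the Dachsous signal, is encoded by ft (FBgn0001075, 2L:4198404-4221796, minus strand, 23.4 kb). It held 3 optimal peaks, all weaker than the upstream ds peak. The promoter peak (2L:4222090-4222489) had a signal of 232 and heights of 1.72, 0.819 and 1.25 in replicates 1, 2 and 3 (1.26 ± 0.450, SD, n = 3). Replicate 2 was lowest there, and its summit lay 546 bp upstream, outside the promoter limit, as did that of replicate 3 at 536 bp. A second peak 1299 bp upstream had a signal of 170 and heights close to each other, 0.971, 0.955 and 0.802 (0.909 ± 0.0932, SD, n = 3). The third, 10127 bp into the gene, had a signal of 178 and was found in replicates 1 and 3 but not in replicate 2. Of 1314 coding genes of 10 to 30 kb, 153 (11.6%) held 3 or more.

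The third gene of this arm, app (FBgn0260941, 3L:12206238-12266841, minus strand, 60.6 kb), encodes Approximated, a palmitoyltransferase that acts downstream of Fat. It has 4 TSS positions and held 1 optimal peak, at the outermost (3L:12266901-12267136), with its summit 159 bp upstream and a signal of 415, rank 707. Heights were 2.21, 2.04 and 2.12 in the 3 replicates (2.12 ± 0.0877, SD, n = 3), so the 3 values differed little. It was the highest promoter peak of the 10 genes. Its other 10 pooled peaks, all intronic, had signals of 28.9 to 54.2. The coding genes whose highest promoter peak was most like it in height over the 3 replicates were Trl, Trpm and CG3587. Likeness was the Euclidean distance of the 3 log2 heights, 0.03, 0.16 and 0.17, among 744 promoter peaks with a value in all 3.

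The apical regulators held 10 optimal peaks, and 4 of them were at ex. Expanded is a FERM-domain protein that helps to recruit the cascade to the membrane. The ex gene (FBgn0004583, 2L:431227-448701, plus strand, 17.5 kb) had 1 peak upstream and 3 in introns. The upstream peak (2L:430115-430414), 980 bp from the TSS, had a signal of 625 and heights of 3.81, 2.98 and 3.18 (3.32 ± 0.430, SD, n = 3). The intronic peak at 10876 bp (2L:441984-442245) had the highest signal of the gene, 704, and heights of 4.63, 2.91 and 3.66 (3.73 ± 0.865, SD, n = 3). That at 8290 bp had a signal of 500 and a mean height of 2.63 ± 0.371 (SD, n = 3), and its summit lay 22 bp upstream of the TSS of the non-coding gene lncRNA:CR43717. The fourth, at 9925 bp, had a signal of 281 and heights of 2.01, 1.86 and 0.894, lowest in replicate 3. The top list of each replicate held all 4. Of the 1314 coding genes of 10 to 30 kb, 69 (5.25%) held 4 or more.

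Kibra is a WW-domain scaffold that works with Merlin and Expanded. The kibra gene (FBgn0262127, 3R:14697689-14724261, minus strand, 26.6 kb) held 5 optimal peaks, more than any other member but ds, though with signals of 125 to 244. Of coding genes of 10 to 30 kb, 38 (2.89%) held 5 or more. Its promoter peak (3R:14724174-14724573), 113 bp upstream, had a signal of 201 and heights of 1.02 in replicate 2 and 1.08 in replicate 3. Replicate 1 had no summit there, nor at the intronic peak 2108 bp downstream. The only kibra peak in all 3 top lists was the one 17182 bp downstream, with a signal of 244 and heights of 1.68, 0.996 and 1.17 (1.28 ± 0.356, SD, n = 3). It lay 29 bp upstream of the start of a copy of the INE-1 transposable element.

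Merlin is the fly homologue of the NF2 tumour suppressor protein. The Mer gene (FBgn0086384, X:19689697-19693500, minus strand, 3.80 kb) held 1 optimal peak (X:19693292-19693503), 104 bp downstream of its TSS in an intron. Its signal was 322, and its heights were 1.43 in replicate 2 and 2.02 in replicate 3. The list of replicate 1 held no peak over Mer or in the 2 kb upstream.

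The printed stretches are rich in A and T, a property of optimal peaks in general. G and C made up a median of 33.7% within 50 bp of the 26 member summits, from 21.8 to 56.4%, and 31.7% over all 4482 optimal summits on the main arms. The share was below that of the flanks, centred 500 bp away, at 22 of the 26, and at 3847 of the 4482. Words were searched on both strands within 100 bp of each summit. The ETS words CCGGAAGT and CCGGAAGC, which differ only in the last letter, were at 0 of the 26 summits, and at 0.178% and 0.112% of all optimal summits. GGAATG, the core of Scalloped sites, was at 0 of 26 (6.47% of all). TATCGATA was at 1, the kibra promoter (2.48% of all). AGATAA, bound by zinc-finger factors such as Serpent, was at 2, upstream of ft and in a ds intron (14.5% of all). The M1BP word GGTCACACT was at 0 (0.803% of all). GAGAGAG, bound by the Trl protein, was also at 0 (2.48% of all). With 26 summits such counts are descriptions only.

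The kinase core held 4 optimal peaks, with signals of 118 to 302, and none was in every top list. Warts is the kinase that phosphorylates Yorkie. The wts gene (FBgn0011739, 3R:30789625-30806619, minus strand, 17.0 kb) held 3 optimal peaks, all in introns. The highest, 2702 bp downstream of the TSS, had a signal of 234 and heights of 1.05 in replicate 2 and 0.943 in replicate 3, with none in replicate 1. The peak at 9706 bp had the widest ratio between replicates of the 18 peaks with a value in all 3. Its heights were 1.51, 0.272 and 0.482, so replicate 1 was over 3 times the others, and its signal was 127. The third, at 1196 bp, had a signal of 118, near the lowest in the optimal list, which was 109. Near the TSS of wts the pooled list had a weak peak 182 bp upstream, with a signal of 40.7.

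Mats is the Mob-family adaptor of Warts. The mats gene (FBgn0038965, 3R:22421161-22423302, plus strand, 2.14 kb) has 2 TSS positions and held 1 optimal peak (3R:22421746-22421912), 476 bp downstream of the nearer one, in an intron. Its signal of 302 was the highest of the kinase core. Heights were 1.61 in replicate 2 and 1.48 in replicate 3, and replicate 1 had no peak over the gene or in the 2 kb upstream.

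Hippo is the kinase that gives the pathway its name. The hpo gene (FBgn0261456, 2R:19493996-19496856, minus strand, 2.86 kb) had no peak in the optimal list, in the pooled list or in replicates 1 and 2. Replicate 3 alone had one, 41 bp upstream of the TSS, with a height of 1.14, rank 1817 of 30000. It was in the top list of replicate 3, yet the nearest summit of the pooled list lay 3565 bp upstream. The nearest optimal summit was 44416 bp away.

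Yorkie is the coactivator that the cascade restrains. The yki gene (FBgn0034970, 2R:24065975-24068485, minus strand, 2.51 kb) held 1 optimal peak (2R:24068651-24069050), 366 bp upstream, with a signal of 223. The summit lay nearer to Gpat4, a glycerol-3-phosphate acyltransferase gene, 94 bp downstream of a TSS of it, so the peak cannot be assigned to yki alone. Only replicate 2 had a summit within 100 bp, with a height of 1.34. Replicate 3 had one 482 bp upstream of yki with a height of 0.766, and the nearest of replicate 1 was 45890 bp away.

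**Figure D3:**
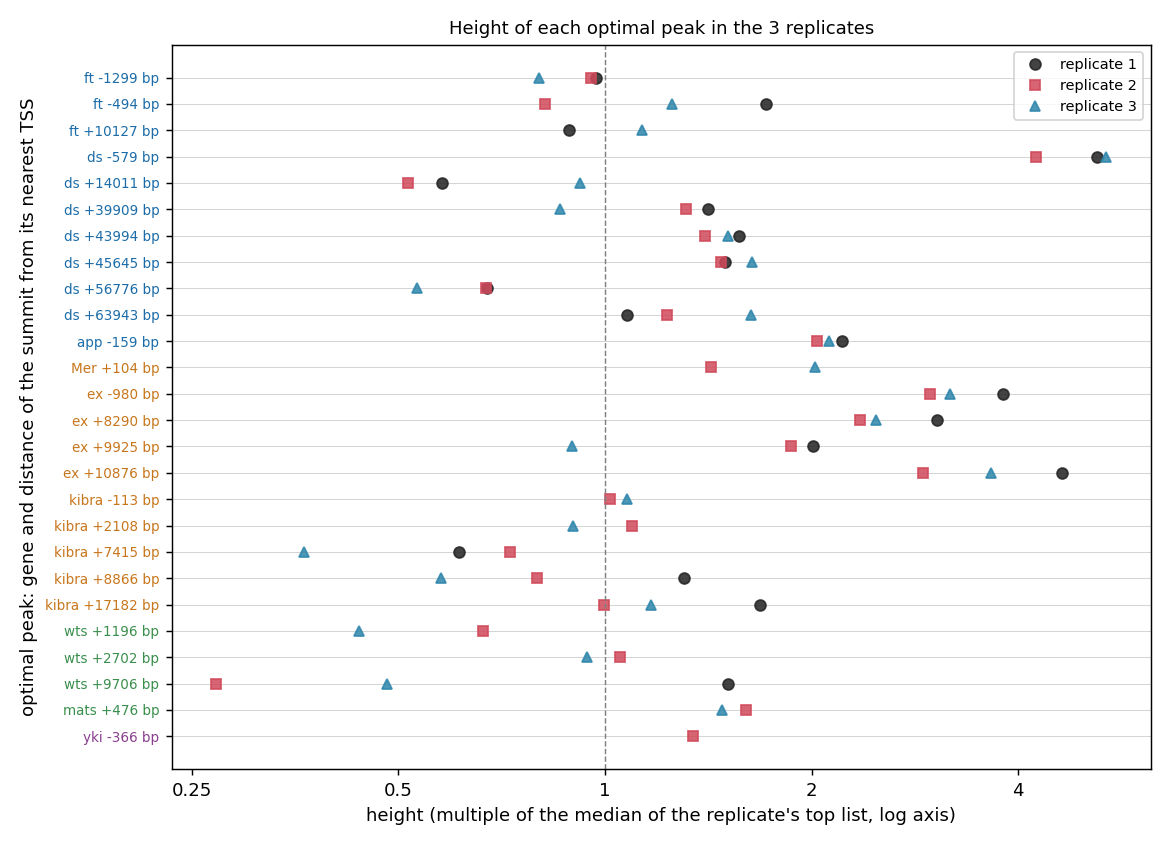
Height of each of the 26 optimal peaks (x axis, multiple of the top-list median, log scale) in replicates 1 to 3, with one line of points per peak and names coloured by pathway level. A missing symbol means that the replicate's list had no summit within 100 bp. The upstream ds peak is above 4 in all 3 replicates, ex reaches 4.63, and 7 peaks have no point for replicate 1: 2 of kibra, 2 of wts and those of Mer, mats and yki.

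Set side by side, the cadherin arm held more optimal peaks than the kinase core but fewer per length. The values for height and reproducibility rest on 11 and 4 peaks, and 7 of the 11 are at ds. The cadherin arm held 11 optimal peaks and the kinase core 4. All 3 replicate lists held 10 of the 11 and 1 of the 4, beside 67.0% of all optimal peaks. All 3 top lists held 8 of the 11 and 0 of the 4, beside 45.9%. The highest signal was 968 against 302 and the median 232 against 181. The 968 was at ds, and the highest of app, 415, was above the 302 of mats, but that of ft, 232, was below it. Promoter peaks were at 2 of 3 genes against 1 of 3. The cadherin genes are much longer, with 165 kb including the 2 kb upstream, against 28.0 kb. Per 100 kb the cadherin arm held 6.67 optimal peaks and the kinase core 14.3, with 18.6 for the apical regulators and 4.28 over all coding genes. The genes within each arm differed widely. The values were 11.8 for ft, 9.09 for ds and 1.60 for app, against 0 for hpo, 15.8 for wts and 24.1 for mats. Long genes as a class held fewer per length, 2.87 per 100 kb in genes over 30 kb, 4.91 at 10 to 30 kb and 5.16 below 10 kb. With the top list of each replicate the cadherin arm held 11, 10 and 10 peaks (10.3 ± 0.577, SD, n = 3) and the kinase core 1, 3 and 3 (2.33 ± 1.16). These counts are over 165 kb against 28.0 kb, and ds alone gave 7, 7 and 6 of the cadherin peaks. Per 100 kb the values were 6.67, 6.06 and 6.06 (6.26 ± 0.350) against 3.57, 10.7 and 10.7 (8.33 ± 4.12), so the cadherin arm was higher in replicate 1 and lower in replicates 2 and 3. Without replicate 2 or without replicate 3, 0 kinase core peaks were left and 9 cadherin peaks, and the difference per length changed sign.

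**Figure D4:**
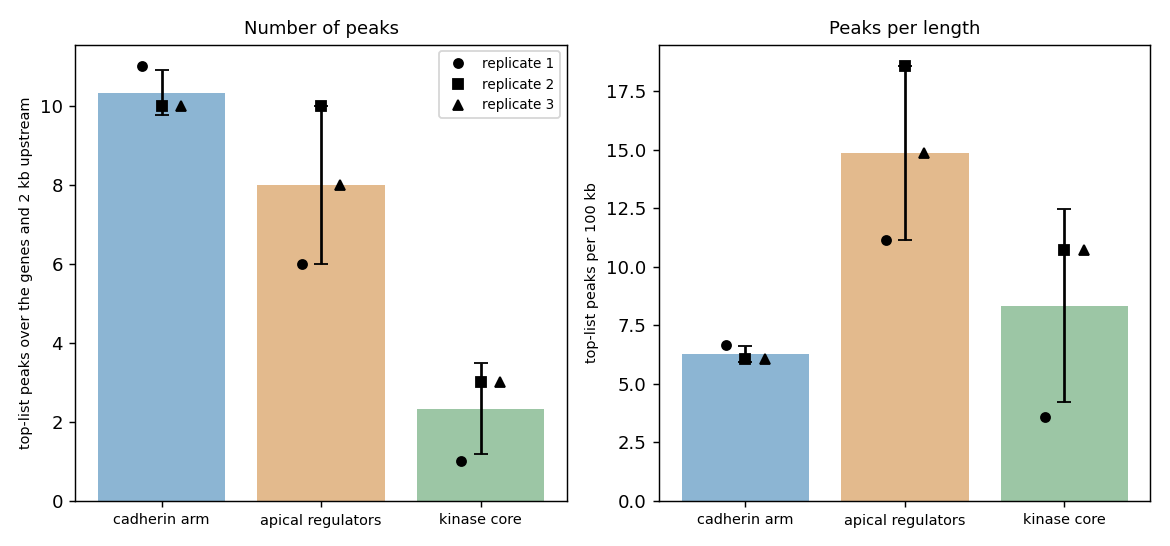
Top-list peaks over the genes and 2 kb upstream, as a number (left) and per 100 kb (right), for 3 genes in each class. Bars are means over the 3 replicates, whiskers are SD and symbols are replicates. The cadherin arm has 10 to 11 peaks against 1 to 3 for the kinase core, while the order per length differs between replicates.

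Besides the 10 genes, 40 other genes of the pathway were examined, 1 of them the microRNA gene mir-ban. Promoter peaks were at 7 of the 40, near the 15.2% of all coding genes, and 22 had an optimal peak over the gene or 2 kb upstream, where 23.6% of all coding genes had one. That share rose with gene length, from 19.2% below 10 kb to 57.6% over 30 kb, and the roles were not matched for length. Among partners of the kinase core, 0 of 9 had a promoter peak, sav, Tao and Rassf among those without one. Of 7 partners of the cadherin arm, dco, a casein kinase gene that acts with Fat, had one (signal 126), and fj, dachs and lft had none. Of 8 genes listed under apical and junction, crb (165), Sik3 (163) and sdt (110) had one, while Patj, jub and Pez did not. The roles are those of a fixed list, so counts by role depend on where a gene such as the kinase gene Sik3 was placed. Crumbs binds Expanded at the apical membrane, and crb also had the highest signal of the 40 genes, 1153, away from its promoters. Of 6 nuclear partners of Yorkie, mask had one (179), and sd, Wbp2 and Tgi had none. Of 10 reported Yorkie targets, CycE (166) and dlp (222) had promoter peaks. Diap1, E2f1 and Myc had none there, but 3, 6 and 3 optimal peaks over the gene and 2 kb upstream, with highest signals of 392, 315 and 668. Every role had genes with such peaks: 8 of the 10 targets, 3 of 9 core partners and 3 of 7 cadherin arm partners. So did 5 of 8 apical and junction genes and 3 of 6 nuclear partners.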

How the data were processed

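Peak lists from 3 biological replicates of 1 group were analysed on dm6. According to notes that accompany the samples, a replicate's list came from its own alignments and a control file, the pooled list from the alignments of all 3, and the optimal list from these lists by a threshold on the irreproducible discovery rate. Signal is the value the authors deposited in each list, with no normalization stated. Its scale is the same in the optimal and pooled lists and differs in each replicate list. Which aligner and peak caller were used is not given in the sources used here. Lists on the dm3 build were not used.

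Ensembl release 115 gave genes and TSS positions, and RefSeq's Release 6 gave sequence. No peak lay past the end of a sequence, and no coordinate was converted. Coordinates are 1-based. Pandas 2.3.3 and numpy 2.4.6 in Python 3.11.15 were used, and the functions that place peaks were tested on simulated peaks. The members and lists were chosen with earlier results of these data known. Named genes were the 10 members, every other pathway gene with an optimal promoter peak, up to 3 per role without one, genes sharing a member's promoter peak and the 3 most like app in height. In the list of other genes d was read as dachs, a RefSeq synonym. The highest signal of the crb gene, away from its promoters, and the nearby lncRNA and transposable element were named after their values were seen. Alternatives covered the TSS window, the upstream length, interval overlap, the 2252 peaks of higher signal, the summit distance, scaling to the 2000 highest peaks and each replicate left out. There a peak had to be in the top lists of both others.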

Additional observations from a re-analysis of the deposited data

How the results depend on the processing

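Results that moved are given here by setting. Members with a promoter peak fell from 6 to 3 with a 250 bp window, where 11.8% of coding genes had one, against 15.2%. They ranged from 2 to 5 with a replicate left out (5.94% to 10.8% of coding genes). Members with a peak over the gene and 2 kb upstream ranged from 5 to 8 with a replicate left out, against 9. Only 2326 to 2906 of the 4505 peaks were kept there. The share of all coding genes was not computed for this count, so the fall is not read as a trait of the members. Other pathway genes with a promoter peak numbered 1, against 7, among the 2252 peaks of higher signal (9.18% of coding genes). With a replicate left out they numbered 0 to 4. With the gene body alone the cadherin arm held 7 peaks (4.40 per 100 kb), and with 5 kb upstream it held 7.47 per 100 kb. Among the peaks of higher signal it held 7 (4.24 per 100 kb), and the kinase core 2 (7.14 per 100 kb). With a replicate left out the cadherin arm held 8 to 9 peaks and 4.85 to 5.46 per 100 kb, and the kinase core 0 to 2 and 0 to 7.14 per 100 kb. The cadherin minus kinase core difference per 100 kb was −7.62. It was −13.8 with the gene body alone, −2.90 among the peaks of higher signal, and −2.29 to 5.46 with a replicate left out, so it reversed without replicate 2 (5.46) and without replicate 3 (5.46). Fewer peaks remain in those settings by construction (2326 and 2497), and the cause beyond that was not tested. Scaling to the 2000 highest peaks lowered the mean height of all 6 promoter peaks, to 1.22 at app against 2.12. This fall was fixed in advance, because the median of fewer, higher peaks is larger. With 200 bp between summits the height at yki, from replicate 2 alone, became a mean of 1.06. No paired analysis was possible because all samples belong to 1 group. Depth is unknown, so a missing weak peak may lie below detection.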
